A study of Aspergillus nidulans and Aspergillus wentii with 48 samples.

Results

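The genes described here are 95 of the 10988 rows of the *A. nidulans* table, selected on their measured values. In the 12 libraries of the THS30 strain, L is log2((mean RPKM treated + 1)/(mean RPKM untreated + 1)), where RPKM is reads of a gene divided by its length in kilobases and scaled to the size of the library and each mean covers 3 libraries. A gene was taken when L was over 0.9 in the combined NaCl + sorbitol treatment and under 0.4 in both the sorbitol and the NaCl treatment. Of 346 rows over the combination threshold, 189 met the NaCl condition, 150 met neither of the other conditions, and these 95 met both. The 95 rows hold 94 AN-numbered genes and 1 transfer RNA gene, AN_tD(GUC)6. The THS30 values below are therefore a description with no test, and all tests use the 12 libraries of the Δ*gfdB* strain, which took no part in the selection.

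RNA was sequenced from mycelium of THS30, the *gfdB*+ reference strain, and of the Δ*gfdB* gene deletion mutant, which lacks the *gfdB* glycerol 3-phosphate dehydrogenase gene. Cultures grew in Barratt's minimal broth, THS30 for 36 h and the mutant for 38 h, and were then moved to fresh broth for 0.5 h. This broth was plain (untreated) or held sorbitol at 2 M, NaCl at 1 M, or both agents together. Each of the 8 groups had 3 biological replicates, with library totals from 11438978 to 53348830 reads. The *gfdB* gene (AN6792) had at least 71 reads in every THS30 library and at most 2 in every Δ*gfdB* library. Strain and age at harvest differ together, so they cannot be told apart in any strain difference below. In such bulk samples, fewer cells of a type and less RNA per cell cannot be told apart.

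Fungi meet high osmolarity by activating the high osmolarity glycerol kinase pathway and accumulating glycerol and other compatible solutes, while the cell wall and membrane are remodelled. Sorbitol is a non-ionic osmolyte that withdraws water, whereas NaCl adds ionic stress, since sodium ions are toxic and must be pumped out or stored in the vacuole. A culture in both agents meets both at a higher total osmolarity. The study nevertheless reported a much weaker stress response of THS30 to the combination than to either agent, without reduced growth. The *gfdB* gene had mean THS30 RPKM of 3.75 untreated, 55.2 with sorbitol, 160 with NaCl and 3.53 in the combination. A gene raised only in the combination therefore differs from the genes raised by the single agents.

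In Δ*gfdB* nearly all of the genes rose in the combination as well, and many also rose with sorbitol alone. With edgeR's quasi-likelihood test, 94 of the 95 were tested, the transfer RNA gene being too low, and 89 of the 94 rose at a Benjamini-Hochberg adjusted p under 0.05, against 20.9% of all 9247 genes tested. More than 2-fold rises numbered 49, against a background of 6.02%. The fitted log2 change was above 0 for all 94, against 44.4% of all genes tested. Its median was 1.03 (lowest 0.31, highest 4.75), beside −0.08 over all genes tested. Without the untreated Δ*gfdB* replicate 1, in which the 95 genes had a median 0.37 below the group mean on the log2 scale, 34 rose more than 2-fold (background 6.96%) and the median was 0.86. Without replicate 2 of that group, 62 did (background 6.57%). AN11096 and AN10818 passed the filter on low counts only through the combination libraries, so they had to differ to be tested.

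**Figure D1:**
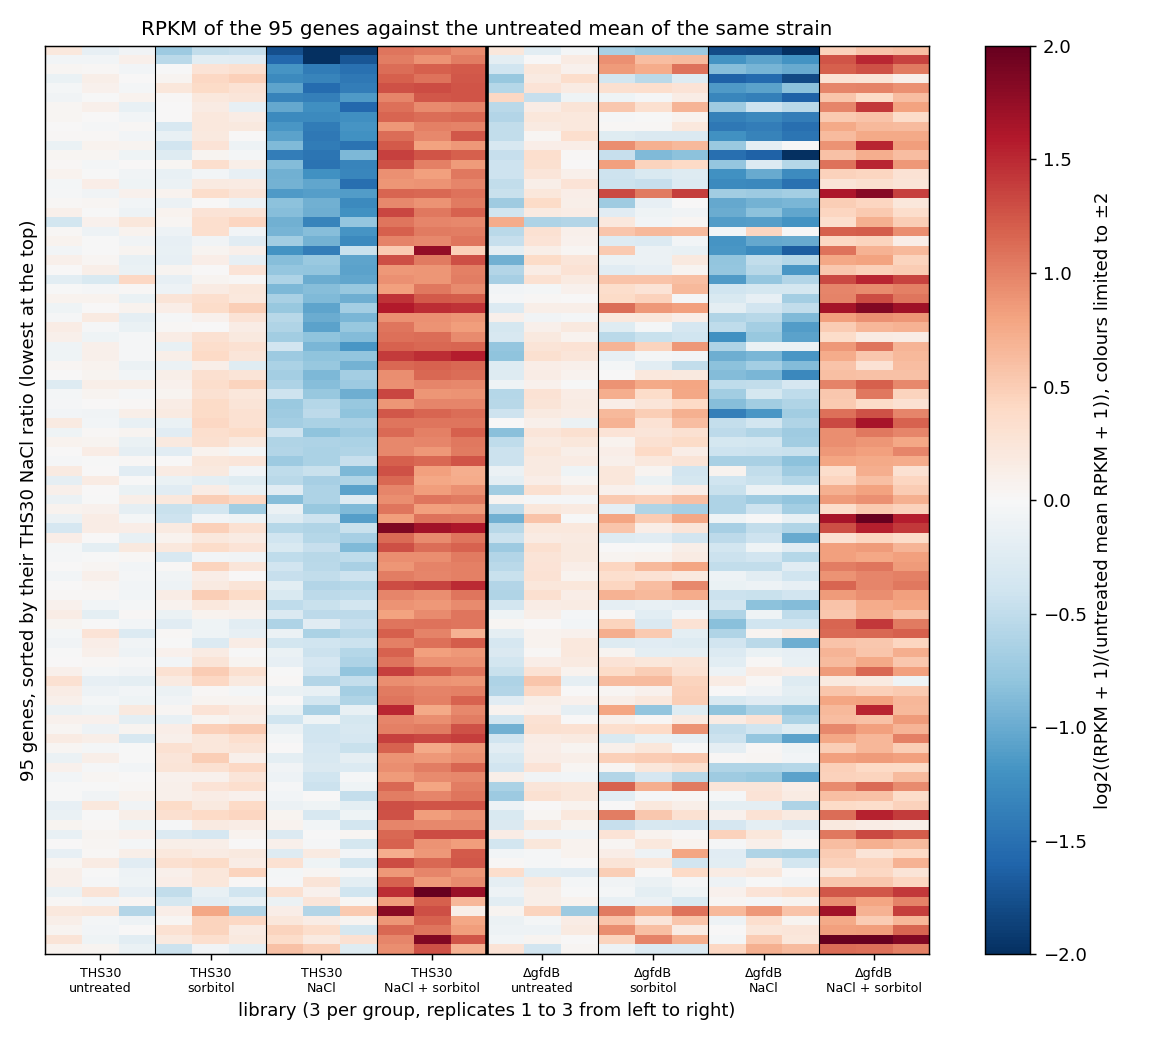
Heat map of log2((RPKM + 1)/(untreated mean RPKM + 1)) for the 95 genes (rows, sorted by their THS30 NaCl ratio) in 24 libraries (columns, 3 per group), each strain against its own untreated mean, with colours limited to ±2. The combination columns are red in both strains, the NaCl columns are mostly blue, and the first untreated Δ*gfdB* library is bluer than the other 2 of its group, with a median of −0.37.

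The name "raised only by the combination" held less well outside the libraries that gave it. In Δ*gfdB*, 49 of 94 rose with sorbitol (background 32.7%), 13 of them more than 2-fold, a share below the background of 16.1%. With NaCl, 13 rose (background 33.7%), 1 of them more than 2-fold (background 18.6%), and 26 fell (background 36.2%), 6 of them more than 2-fold (background 16.7%). The median fitted change was 0.48 with sorbitol and −0.18 with NaCl, beside −0.01 and −0.06 over all genes tested. By these calls, 37 genes rose in the combination and were not called up by either agent alone (background 5.48%), 39 rose with the combination and sorbitol but were not called up with NaCl (background 5.29%), 5 rose with the combination and NaCl but were not called up with sorbitol (background 0.919%), and 8 rose in all treatments (background 9.21%). Each of these classes includes the combination rise, which 89 of the 94 had against 20.9% of all genes tested. Shares above these backgrounds therefore do not by themselves show a trait in the single agents. A missed call does not show that a gene did not change. Single libraries moved these counts: without untreated replicate 1, 43 genes fell with NaCl (background 37.7%) and 3 rose more than 2-fold (background 20.1%). Without untreated replicate 2, 23 rose more than 2-fold with sorbitol, which put their share above the background of 16.1% instead of below it, and 0 with NaCl (background 18.6%). Rises with NaCl numbered 6 without NaCl replicate 2 (background 31.2%) and 8 without NaCl replicate 3 (30.6%), and without NaCl replicate 1, 2 exceeded 2-fold (18.9%).

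The direct tests within Δ*gfdB* set the combination against each single agent. Against NaCl, 88 of 94 genes were higher in the combination (background 34.4%), 66 more than 2-fold (background 14.2%), with a median log2 difference of 1.21. Against sorbitol, 58 were higher (background 25.1%), 11 more than 2-fold (background 3.28%), with a median of 0.57. Higher than untreated, sorbitol and NaCl cultures alike were 56 of 94 genes, against 5.35% of all genes tested, and without the combination replicate 2 they were 37 (background 3.13%). In the untransformed RPKM of all 95, the 3 combination libraries lay above the other 9 Δ*gfdB* libraries for 71 genes (background 5.81%). The corresponding THS30 count, which the selection used, was 94, with 9.69% over all genes. The change from sorbitol to the combination exceeded that from untreated to NaCl on the log2 scale for 51 genes (background 36.8%), 34 of them by more than 2-fold (background 25.1%).

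**Figure D2:**
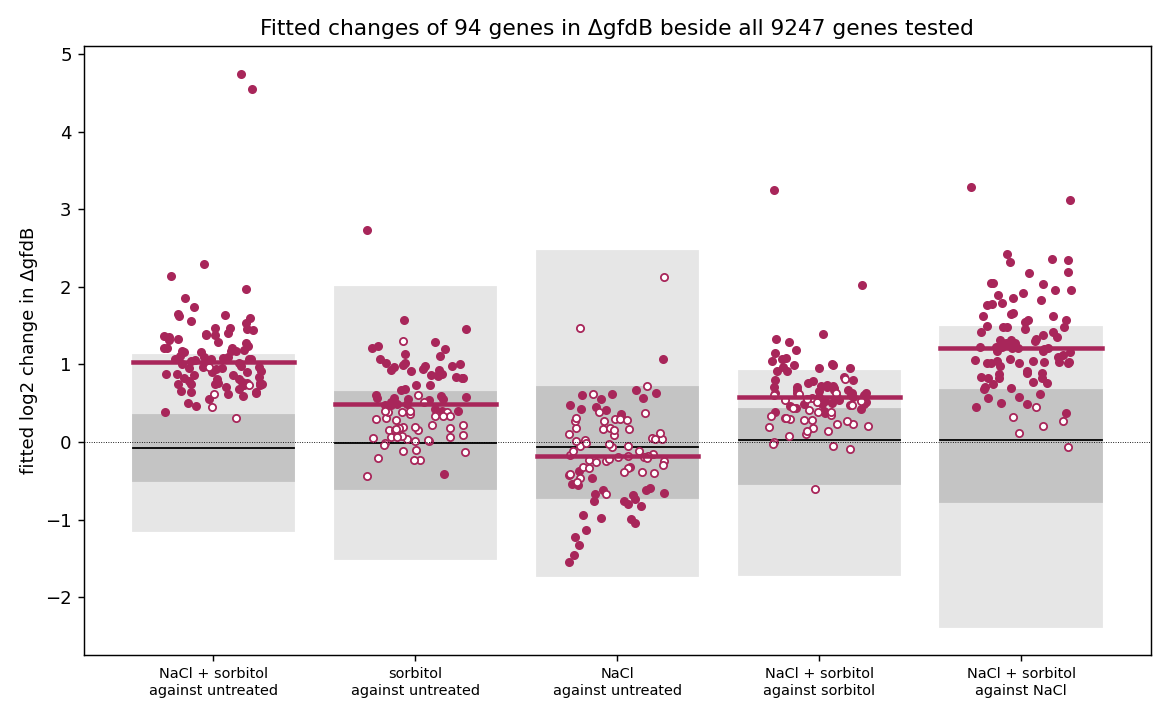
Fitted log2 change in Δ*gfdB* (y axis) in 5 comparisons (x axis) for 94 genes. Filled points have an adjusted p under 0.05 and open points do not, the magenta line is their median, the black line the median of all 9247 genes tested, and the dark and light grey boxes the middle 50% and 90% of those genes. The magenta line stands at 1.03, 0.48, −0.18, 0.57 and 1.21 from left to right.

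Scaling bears on which genes count as unmoved. The ratios of the rule use RPKM per total library reads, with no correction for composition. Scaling by TMM factors raised the median of all genes in THS30 by 0.10 (sorbitol), 0.31 (NaCl) and 0.20 (combination) on the log2 scale, and 176 genes then met the rule, 81 of them among the 95. Of the 95, all stayed over 0.9 in the combination, 83 stayed under 0.4 with sorbitol and 93 with NaCl. In the Δ*gfdB* fit the same step shifted the median of all genes tested by 0.22 in the combination, 0.29 with sorbitol and 0.41 with NaCl. Without it, 28 of the 94 rose more than 2-fold in the combination (background 3.84%). The sorbitol calls then changed from 49 up and 1 down to 26 up (27.7%, near the background of 23.2%) and 7 down (background 44.8%, against 32.5% with scaling). The NaCl calls changed from 13 up and 26 down to 1 up (background 22.5%) and 57 down (60.6%, background 53.3%).

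In THS30 the 95 genes had a median L of 1.01 in the combination (0.901 to 1.75), 0.13 with sorbitol (−0.55 to 0.39) and −0.55 with NaCl (−1.90 to 0.32). With NaCl 87 were below 0, 62 of them below −0.4 and 18 below −1. Over all genes the median L with NaCl was −0.20, and 41.6% were below −0.4. For the counts below 0 and below −1, no share over all genes was taken. All 3 NaCl libraries lay below all untreated ones for 69 genes, where 48.9% of all genes did so. The commonest order of the 4 mean levels, found for 66 genes, was combination, sorbitol, untreated, NaCl. In Δ*gfdB* this order held for 51 genes, and NaCl gave the lowest of the 4 means for 77. The orders were not counted over all genes, so they are not shown to be particular to these genes. In THS30 the rule itself put the combination first. The orders use RPKM without scaling for composition, in which the median NaCl ratio of all genes in Δ*gfdB* was −0.23. The same ratio in Δ*gfdB* had a median of 0.75 in the combination (0.10 to 2.13), 0.18 with sorbitol (−0.70 to 1.26) and −0.47 with NaCl (−1.93 to 0.70).

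Applied to the Δ*gfdB* libraries, the rule took 35 genes, which is 0.319% of all genes, where it took 0.865% in THS30. Of the 35, 10 were among the 95, that is 10.5% of the THS30 list and 28.6% of the Δ*gfdB* list. The 10 were AN1181, AN1548, AN1647, AN3359, AN5037, AN8953, AN9451, AN10299, AN11096 and AN12279. Of the 95, 62 were at 0.9 or lower in the Δ*gfdB* combination, 30 were at 0.4 or higher with sorbitol, and 2 with NaCl. The other 33 were over 0.9 in the combination, where 2.45% of all genes were. Under 0.4 were 65 with sorbitol (81.3% of all genes) and 93 with NaCl (81.5% of all genes). In the combination the median log2 ratio of Δ*gfdB* to THS30 was −0.09 over the 95 (−0.02 over all genes). In untreated cultures that median was 0.15 (−0.02 over all genes), with sorbitol 0.33 (−0.11), and with NaCl 0.26 (−0.03). These strain ratios use the THS30 libraries that chose the genes and were not tested.

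**Figure D3:**
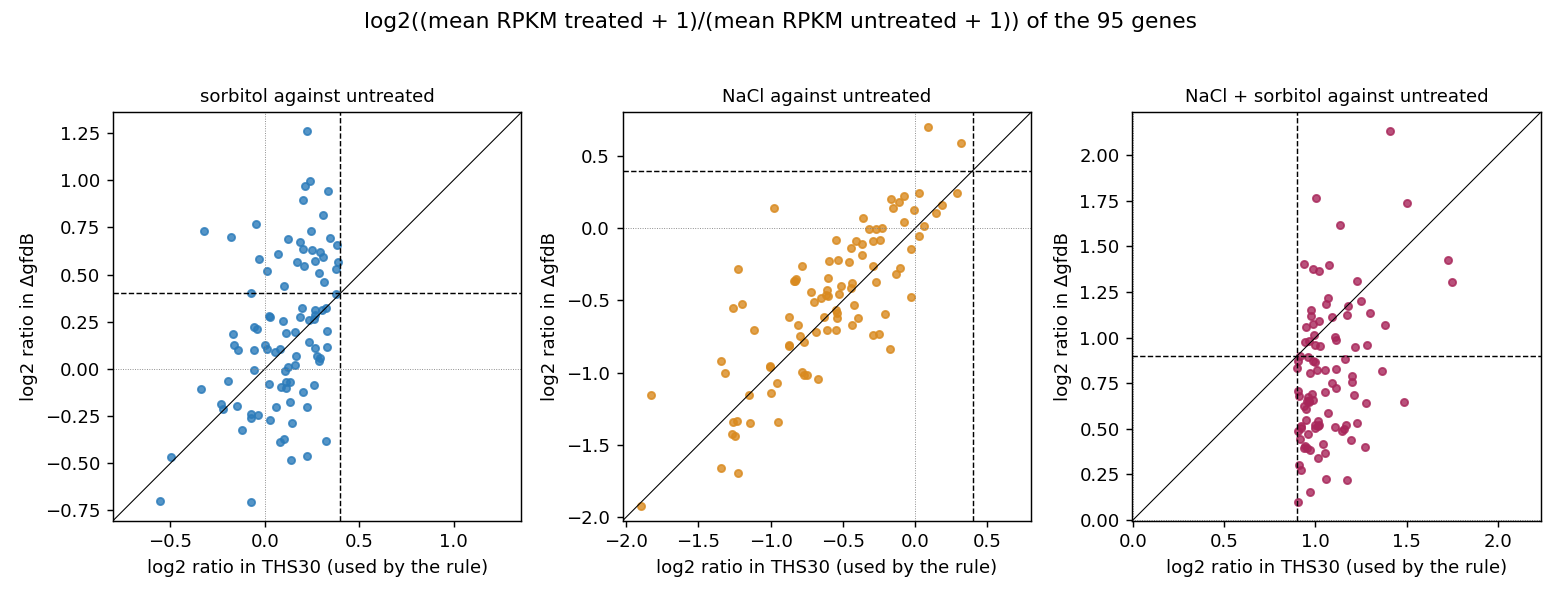
Log2 ratio of mean RPKM + 1, treated over untreated, in THS30 (x axis, used by the rule) and Δ*gfdB* (y axis) for the 95 genes under sorbitol, NaCl and NaCl + sorbitol. The solid line marks equal ratios and dashed lines the thresholds of 0.4 and 0.9. In the combination 33 genes lie above the dashed line in Δ*gfdB*, where 2.45% of all genes do. With sorbitol 30 lie on or above it and 65 below, where 81.3% of all genes lie below.

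The combination and sorbitol edges of the rule cut through a continuum. Genes were sparser at the NaCl edge, with none that met the other conditions between 0.316 and 0.431. Nearest above 0.9 in the combination were AN1502 (L 0.901), AN2201 (0.903) and AN3396 (0.905), and nearest below were AN11735 (0.897), AN6789 (0.895) and AN1310 (0.893). For sorbitol, AN4938 (0.388), AN5939 (0.384) and AN1647 (0.380) were inside and AN11207 (0.407), AN5505 (0.414) and AN2928 (0.415) outside. For NaCl, AN4136 (0.316), AN10818 (0.291) and AN12240 (0.189) were inside. Outside were AN6908 (0.431), *pacC* (AN2855, the ambient pH transcription factor, 0.534) and AN11359 (0.62).

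Of the 95, 87 matched the RefSeq gene table of assembly ASM1142v1 and 9 carry a symbol there. Those 9 are described first, ordered by role, beginning with the cell wall and membrane. Chitinase *chiA1* (AN8241) hydrolyses chitin of the fungal wall. In THS30 its RPKM was 311, 318 and 297 untreated, 287, 351 and 371 with sorbitol, 266, 206 and 209 with NaCl and 765, 787 and 868 in the combination. The combination libraries stood above all others, and the mean was 2.61-fold the untreated mean. The Δ*gfdB* values were 180, 317 and 318 untreated, 366, 415 and 531 with sorbitol, 246, 253 and 241 with NaCl and 612, 532 and 566 in the combination. There the sorbitol libraries also stood above the untreated ones, up to the lower edge of the combination. The fitted log2 change was 1.29 ± 0.209 (SE, n = 3 per group, edgeR adjusted p = 0.000299) in the combination and 0.98 ± 0.208 (edgeR adjusted p = 0.0011) with sorbitol. Between these treatments the difference of 0.31 ± 0.206 did not pass the test (edgeR adjusted p = 0.226).

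The *utr2* gene (AN4515) bears the name of the *Saccharomyces cerevisiae* transglycosylase that links chitin to glucan in the cell wall. In Δ*gfdB* its RPKM was 319, 604 and 533 untreated, 785, 760 and 816 with sorbitol, 361, 357 and 371 with NaCl and 877, 928 and 860 in the combination. Sorbitol alone brought it almost to the combination level, and the difference between them was 0.11 ± 0.186 on the log2 scale (edgeR adjusted p = 0.655). In THS30 the means were 414 untreated, 526 with sorbitol, 304 with NaCl and 821 in the combination.

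The *erg5* gene (AN4042) encodes the sterol C-22 desaturase of ergosterol synthesis, ergosterol being the main sterol of fungal membranes. In THS30 it had 62.8, 65.5 and 69.7 RPKM untreated, 67.2, 76.8 and 77.8 with sorbitol, 25.7, 25.0 and 29.7 with NaCl, and 131, 157 and 160 in the combination. The mutant had 97.1, 52.8 and 68.5 untreated, 68.7, 71.8 and 80.8 with sorbitol, 28.8, 27.7 and 22.9 with NaCl, and 107.3, 95.01 and 112.1 in the combination. The NaCl libraries were the lowest in both strains, and in Δ*gfdB* one combination library fell below the highest untreated library. NaCl lowered *erg5* by a fitted log2 change of −1.05 ± 0.176 (edgeR adjusted p = 0.000155), and the combination raised it by 0.75 ± 0.174 (edgeR adjusted p = 0.00328).

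Among metabolic genes, *gpdA* (AN8041), the glyceraldehyde-3-phosphate dehydrogenase of glycolysis, had the highest level of the 95. Its THS30 RPKM was 4931, 5010 and 5106 untreated, 4026, 4831 and 4790 with sorbitol, 3522, 3397 and 3522 with NaCl, and 9555, 9538 and 10360 in the combination. The mutant values were 3033, 5408 and 5166 untreated, 4704, 4777 and 5099 with sorbitol, 3376, 3477 and 3047 with NaCl, and 8010, 7725 and 8010 in the combination. In both strains the combination libraries stood clear of all others. The Δ*gfdB* log2 change was 1.02 ± 0.184 in the combination (edgeR adjusted p = 0.000618), with 0.39 ± 0.183 for sorbitol (edgeR adjusted p = 0.0799) and −0.05 ± 0.182 for NaCl (edgeR adjusted p = 0.806).

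Siderophore synthetase *sidC* (AN0607) makes ferricrocin, the intracellular iron store of *Aspergillus*. In THS30 it had 7.91, 9.13 and 8.31 RPKM untreated and 20.3, 19.9 and 20.3 in the combination, with 7.55, 11.1 and 10.6 under sorbitol and 6.27, 4.01 and 3.21 under NaCl. In Δ*gfdB* the values were 5.001, 11.3 and 11.6 untreated, 15.5, 12.97 and 17.8 with sorbitol, 5.75, 8.46 and 8.50 with NaCl, and 17.8, 20.6 and 15.4 in the combination. There the sorbitol and combination groups overlapped, and both rose against untreated, by log2 changes of 1.02 ± 0.281 (edgeR adjusted p = 0.00624) and 1.17 ± 0.282 (edgeR adjusted p = 0.00425).

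Of the regulators, *imeB* (AN6243) encodes a protein kinase related to *S. cerevisiae* Ime2 that acts in light-dependent sexual development. In THS30 it had 23.9, 23.4 and 24.2 RPKM untreated, 18.9, 27.8 and 27.5 with sorbitol, 10.1, 8.45 and 9.90 with NaCl and 44.04, 49 and 48.5 in the combination. In the mutant, *imeB* had 17.1, 27.7 and 28.5 untreated, 24.8, 25.0 and 28.6 with sorbitol, 8.42, 8.72 and 7.99 with NaCl, and 41.9, 38.8 and 38.3 in the combination. The NaCl libraries were the lowest and the combination libraries the highest in both strains, with no overlap. The fitted changes in Δ*gfdB* were −1.14 ± 0.17 with NaCl (edgeR adjusted p = 5.64e-05) and 0.91 ± 0.166 in the combination (edgeR adjusted p = 0.000629).

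The MYND zinc finger gene *samB* (AN0078), known for a role in hyphal polarity and development, had group means of 74.5 ± 2.42 (untreated), 88.7 ± 13.1 (sorbitol), 51.9 ± 5.02 (NaCl) and 146 ± 7.01 RPKM (combination; SD, n = 3) in THS30. In Δ*gfdB* the means were 85.5 ± 24.1, 133 ± 16.2, 64.6 ± 7.02 and 170 ± 13. It rose there with sorbitol (0.92 ± 0.198, edgeR adjusted p = 0.00122) and with the combination (1.20 ± 0.199, edgeR adjusted p = 0.000334).

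**Figure D4:**
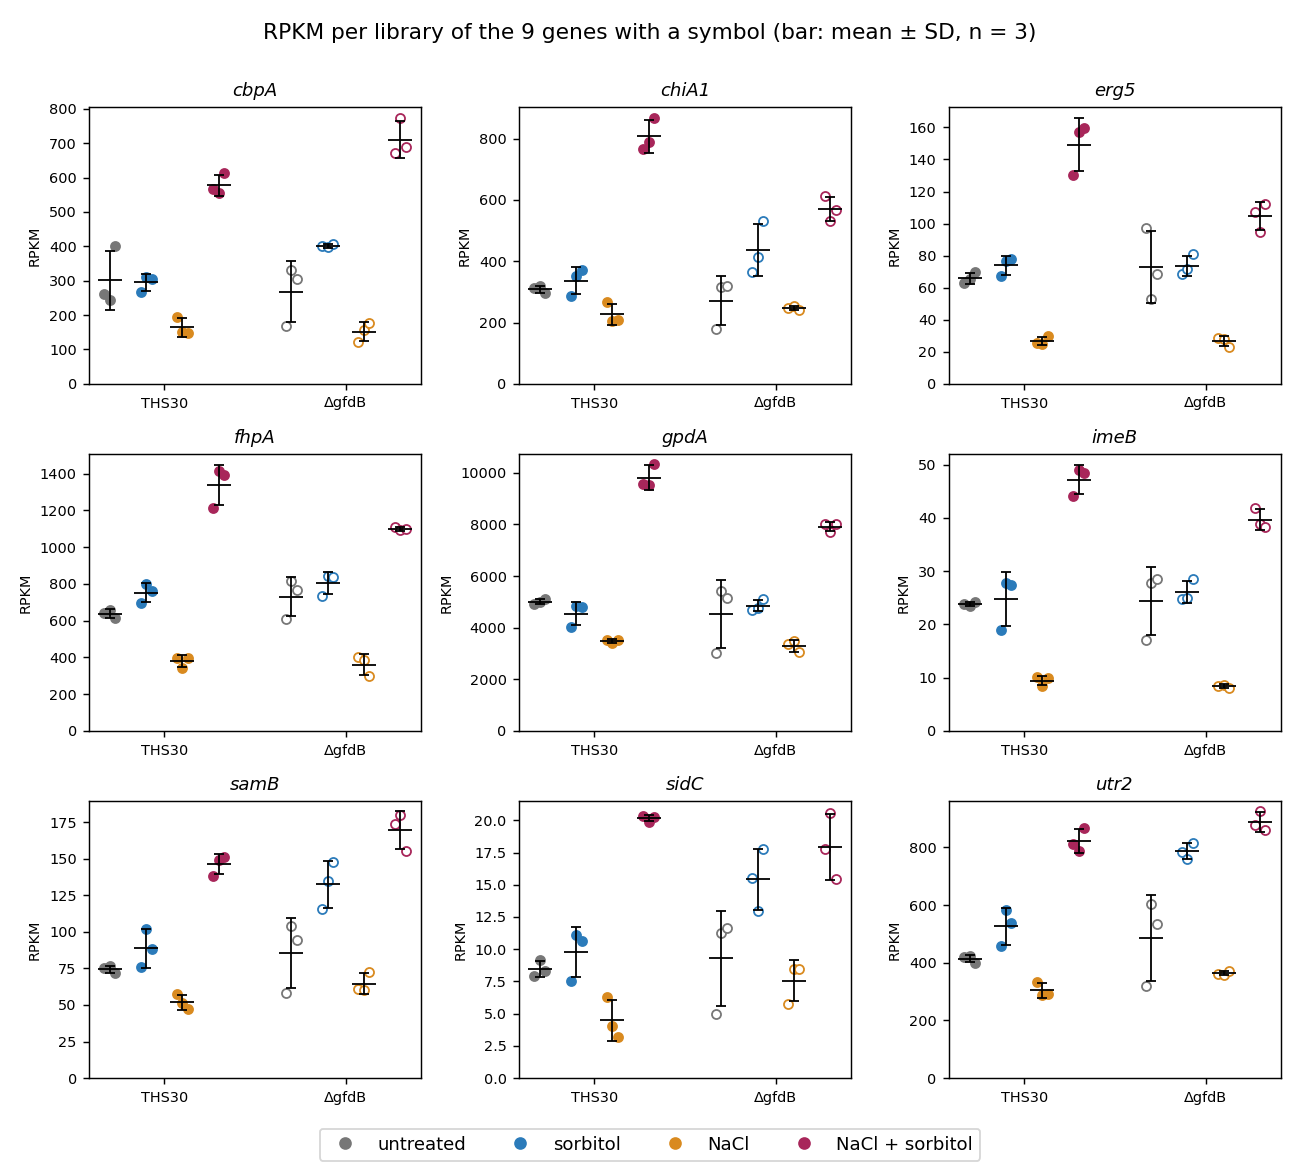
RPKM (y axes, linear from 0) of the 9 genes with a symbol in every library of THS30 (filled) and Δ*gfdB* (open), coloured by treatment, with the mean ± SD of 3 libraries as a bar. In THS30, whose libraries chose the genes, the combination libraries stand above all others in every panel, as for 9.69% of all genes. In Δ*gfdB*, where 5.81% of all genes show this, those of *erg5* and *sidC* overlap another group.

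The 2 remaining symbols, *cbpA* (AN6249) and *fhpA* (AN7169), name genes of high level. For *cbpA* the Δ*gfdB* RPKM was 168, 333 and 304 untreated, 400, 397 and 407 with sorbitol, 122, 156 and 178 with NaCl and 671, 773 and 688 in the combination. The combination libraries were the highest and the sorbitol libraries came next, while NaCl overlapped untreated. The combination exceeded sorbitol by 0.75 ± 0.222 (edgeR adjusted p = 0.0124). For *fhpA* the Δ*gfdB* means were 731 ± 108, 806 ± 61.9, 362 ± 56.1 and 1099 ± 8.99 in the same order (SD, n = 3), and it fell with NaCl by 0.61 on the log2 scale (edgeR adjusted p = 0.00139).

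The other members carry AN numbers only. The highest combination ratio in THS30 was that of AN1548 (L 1.75), with 17.3, 22.8 and 16.7 RPKM untreated, 13.2, 17.03 and 14.1 with sorbitol, 23.7, 20.2 and 14.1 with NaCl and 54.2, 79.4 and 64.8 in the combination. In Δ*gfdB* it had 17.8, 20.8 and 18.98 untreated, 18.6, 16.7 and 18.0 with sorbitol, 20.5, 23.5 and 24.7 with NaCl and 47.01, 46.9 and 52.6 in the combination. Both single agents overlapped the untreated range in both strains, whereas the combination libraries stood apart. It rose by 1.56 ± 0.125 (edgeR adjusted p = 3.48e-06) and exceeded sorbitol by 1.39 ± 0.125 (edgeR adjusted p = 2.01e-06) and NaCl by 0.90 ± 0.123 (edgeR adjusted p = 2.94e-05). NaCl alone raised it by 0.67 (edgeR adjusted p = 0.000376).

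AN8953, next in THS30 (L 1.73), rose from 63.0, 88.3 and 87.5 RPKM untreated to 294, 257 and 247 in the combination. In Δ*gfdB* it had 73.8, 126 and 126 untreated, 160, 118.9 and 129 with sorbitol, 68.1, 76.5 and 71.1 with NaCl and 266, 322 and 290 in the combination. The last group lay above all others, by 1.04 ± 0.188 over sorbitol (edgeR adjusted p = 0.000582). AN4026 (L 1.503) went from a mean of 53.9 ± 2.99 to 155 ± 7.56 RPKM in THS30 and from 57.7 ± 8.74 to 195 ± 13.6 in Δ*gfdB* (SD, n = 3). With sorbitol it reached 111.7 ± 13.1 in Δ*gfdB* and 68.3 ± 8.77 in THS30, where the rule kept the sorbitol ratio under 0.4.

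The other high ratios in THS30 were those of AN8903 (L 1.48), AN10818 (1.41), *chiA1* (1.38), AN6128 (1.36), AN10299 (1.30), AN1181 (1.28) and AN0399 (1.27). In Δ*gfdB*, AN8903 and AN0399 rose by fitted changes of 0.86 ± 0.22 (edgeR adjusted p = 0.00597) and 0.86 ± 0.188 (edgeR adjusted p = 0.00227). For AN0399 the 4 group means in Δ*gfdB* were 122 ± 32.8 untreated, 74.5 ± 12.4 with sorbitol, 36.9 ± 6.71 with NaCl and 191 ± 9.59 in the combination (SD, n = 3). The NaCl libraries lay below and the combination above untreated, while sorbitol overlapped untreated. NaCl lowered AN0399 by 1.32 on the log2 scale, that is −1.32 ± 0.191 (edgeR adjusted p = 4.26e-05), while sorbitol gave −0.43 ± 0.188 (edgeR adjusted p = 0.0587).

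A rise in the combination together with a fall with NaCl was called for 24 of the 94 genes in Δ*gfdB* (background 3.35%), whether or not they moved with sorbitol. That share includes the combination rise, which 89 of the 94 had against 20.9% of all genes tested. Falls with NaCl on their own numbered 26 (27.7%), below the background of 36.2%. AN3674, which the gene ontology terms used in the study place among reproduction and meiotic cell cycle genes, had the lowest NaCl ratio of the 95 in THS30 (L −1.90). Its RPKM in THS30 was 116, 89.7 and 95.4 untreated, 60.4, 71.2 and 72.2 with sorbitol, 28.99, 23.97 and 25.4 with NaCl and 211, 207 and 193 in the combination. The mutant values of AN3674 were 144, 106 and 120 untreated, 78.6, 74.01 and 74.5 with sorbitol, 34.9, 34.5 and 25.9 with NaCl, and 170, 183 and 188 in the combination. Both single agents lay below untreated and the combination above it, with no overlap, in both strains. In Δ*gfdB* the changes were −0.42 ± 0.12 with sorbitol (edgeR adjusted p = 0.00817), −1.55 ± 0.123 with NaCl (edgeR adjusted p = 2.42e-07) and 0.77 ± 0.12 in the combination (edgeR adjusted p = 0.000231). AN3674 was the 1 member that fell with sorbitol in that strain.

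AN1181, under inorganic cation transmembrane transport in those terms, had 290, 317 and 292 RPKM untreated and 726, 744 and 717 in the combination in THS30, with a mean of 119.9 ± 21.3 (SD, n = 3) under NaCl. In Δ*gfdB* it fell with NaCl by 0.59 and rose in the combination by 1.18 ± 0.187 (edgeR adjusted p = 0.000254). AN1536, under the response to unfolded protein, had the strongest sorbitol response of the members over 10 RPKM in Δ*gfdB*. It had 27.6, 44.5 and 41.6 RPKM untreated, 96.5, 79 and 101 with sorbitol, 23.0, 22.6 and 23.2 with NaCl and 118, 137 and 99.6 in the combination. The sorbitol and combination groups overlapped. In THS30, where the rule kept the sorbitol ratio under 0.4, the sorbitol values of AN1536 were 30.1, 36.8 and 34.3. They stood beside 28.3, 27.4 and 30.5 untreated and 65.4, 65.2 and 62.04 in the combination. AN2436, under adenyl nucleotide binding, and AN1940, under protein targeting, rose in the Δ*gfdB* combination by 1.60 ± 0.124 (edgeR adjusted p = 2.79e-06) and 0.65 ± 0.199 (edgeR adjusted p = 0.0165).

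The largest fitted changes in Δ*gfdB* belong to genes with few reads. AN10818 had 1, 2 and 1 reads untreated, 3, 9 and 9 with sorbitol, 1, 4 and 3 with NaCl and 42, 37 and 24 in the combination. Per library read the combination was 25.6-fold untreated (95% exact interval 9.72 to 95.9). In the RefSeq annotation it overlaps another gene, AN6425, and since strand is not given for the counting, reads of the overlap cannot be assigned to either. AN11096 had 2, 0 and 0 reads untreated, 2, 1 and 1 with sorbitol, 5, 2 and 0 with NaCl and 17, 17 and 15 in the combination. Its ratio was 24.4 (6.41 to 207). In THS30, which chose both genes, the ratios were 7.49 for AN10818 and 7.09 for AN11096. The intervals cover counting error only. Both genes were near the floor outside the combination, and their fitted log2 changes of 4.75 and 4.55 depend on the prior count.

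At higher levels, AN7626 rose from 1.02, 1.15 and 0.855 RPKM untreated to 4.04, 5.33 and 3.54 in the Δ*gfdB* combination (log2 2.29 ± 0.23, edgeR adjusted p = 1.15e-05), and had 0.440, 0.556 and 0.329 with NaCl. AN2950 rose from 2.07, 7.94 and 4.98 to 17.9, 23.3 and 16.9 (2.14 ± 0.331, edgeR adjusted p = 0.00021). Its untreated libraries spread widely, yet all lay under the combination. AN4026 (1.97), AN1536 (1.86), AN7864 (1.74), AN8953 (1.65), AN5939 (1.64) and *cbpA* (1.62) complete the 10 largest. Of these, AN7864 was low, with Δ*gfdB* means of 0.457 RPKM untreated and 1.29 in the combination. Its combination and sorbitol libraries overlapped.

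At the other end, AN6786 was raised in THS30, as the rule required (6.94, 4.79 and 4.63 RPKM untreated, 11.3, 11.03 and 10.95 in the combination). It was not called up in Δ*gfdB* (3.41, 8.93 and 5.02 untreated, 6.75, 6.66 and 5.36 in the combination). The groups overlapped in Δ*gfdB*, and the change of 0.31 ± 0.278 did not pass (edgeR adjusted p = 0.373), whereas sorbitol gave 9.53, 9.52 and 8.23 RPKM. The gene lies 6 places from the deleted *gfdB* in the RefSeq order, and whether the deletion bears on its level was not tested. AN7081 had 9.47, 19 and 21.7 untreated and 20.7, 20.1 and 18.0 in the combination (0.45 ± 0.232, edgeR adjusted p = 0.126). AN11984 (0.38), AN7867 (0.46) and AN10910 (0.50) passed with small changes.

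The members lay on all 8 chromosomes, with 20 on VII (23.0% of those matched, where 14.9% of all matched genes lie), 15 on II, 14 on I and 4 on VI (4.6% against 11.1%). Direct neighbours formed 3 pairs. AN8555 and AN8556 on chromosome V moved alike, with Δ*gfdB* combination means of 33.1 ± 8.18 and 27.6 ± 6.38 RPKM against 13.97 ± 3.75 and 12.4 ± 3.62 untreated. The adjoining AN8554 is no member because its THS30 sorbitol L was 0.53, with 1.25 in the combination. AN1646 and AN1647 on VII rose in the Δ*gfdB* combination by 0.90 ± 0.218 (edgeR adjusted p = 0.0044) and 1.17 ± 0.174 (edgeR adjusted p = 0.00016). AN7864 and AN7865 on II differed in level, at 1.29 and 46.7 RPKM in that group, and the next member, AN7867, stood 1 gene further, past AN7866 (THS30 combination L 0.65). Median gene length was 1979 bases among members and 1490 over all genes, and median untreated RPKM in THS30 17.7 against 13.2.

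Pathway genes around the members were read from lists matched by symbol or ID, so unnamed genes are missed. In the Δ*gfdB* combination, where 20.9% of all genes rose and 28.8% fell, 4 of 10 ergosterol genes rose and 0 fell: squalene epoxidase *erg1* (1.23), *erg5* (0.75), *erg6* (0.61) and *hmg1* (0.48). Of 7 chitin synthase genes 5 rose and 0 fell, *chsE* most (1.02), and *chiA1* was the 1 chitin or glucan hydrolase matched. Of 10 metal uptake genes 4 rose, the iron regulators *sreA* (1.59) and *hapX* (0.71) with *sidC* (1.17) and *zrfC* (0.80), and 2 fell, *zrfA* (−1.60) and *sit2* (−1.69). Of 5 endoplasmic reticulum folding genes 4 rose, calnexin *clxA* most (1.44), and of 4 chaperones 3, *hsp60* most (1.59). In the remaining lists, which hold no member, rises and falls were 4 and 1 of 5 for calcium homeostasis, 3 and 0 of 3 for peptidases, 10 and 2 of 19 for asexual development, 1 and 1 of 5 for sexual development, 2 and 1 of 3 for autophagy, 3 and 2 of 15 for osmotic stress, 2 and 2 of 8 for glycerol metabolism, and 10 and 5 of 33 for oxidative stress. *pacC* rose (1.12) and the secondary metabolism regulator *laeA* fell (−0.56), each the 1 gene tested of its list. With sorbitol alone in Δ*gfdB*, 32.7% of all genes rose. There, 3 of 10 ergosterol genes, 6 of 7 chitin synthase genes and 2 of 10 metal uptake genes rose. So did 4 of 5 folding genes and 3 of 4 chaperones. Sorbitol changes were 1.08 for *chsE*, 2.14 for *hsp60* and 1.03 for *clxA*. Of 15 osmotic stress genes, 10 rose with sorbitol and 11 with NaCl (background 33.7%), beside 3 in the combination.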

How the data were processed

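The deposited table held, for each library, read counts per gene, the gene length and RPKM. Per the labels and the study's methods, the authors aligned the reads with HISAT2 2.1.0 to the FungiDB *A. nidulans* genome, counted reads per gene, and made RPKM with edgeR. Deposited RPKM equals count / gene length / library total, to a relative difference of 5.25e-15. Strand and multiple matches are not given in the sources used here. In 11 samples DsodB stands as the genotype although the title has DgfdB, which was followed. The series text gives 1 M sorbitol and 2 M NaCl, the sample protocol the doses used here. The 24 *A. wentii* libraries were not used.

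The genes were found from the deposited RPKM with a pseudocount of 1. Counts of the 12 Δ*gfdB* libraries were fitted with edgeR 4.0.16 (TMM, filterByExpr, glmQLFit, glmQLFTest; R 4.3.3), with Benjamini-Hochberg adjustment over 9247 genes. Alternatives used DESeq2 1.42.0 and limma 3.58.1 on log2(RPKM + 1). Other alternatives left out the TMM step, the filter or single libraries, fitted all 24 libraries, took replicate numbers as a block, or changed the rule. The edgeR p-values set each contrast against the spread between replicates within groups. That spread was estimated over all 12 Δ*gfdB* libraries and moderated across genes. The SE printed with a fitted change was derived from the test, as the absolute log2 change divided by the square root of its F statistic. Scripts were tested on simulated data. Symbols came from RefSeq ASM1142v1 (10032 IDs matched). It may not be the authors' build, so no coordinates are given.

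Named genes are the members with a symbol, in a list or beside another member, the 10 largest THS30 ratios, the 10 largest and 5 smallest Δ*gfdB* changes, and the 3 genes on each side of each threshold. AN3674, AN1181, AN1536, AN2436, AN1940, AN7159 and AN8554, with genes of the lists, were named after their values were seen or for their annotation. Members, lists and tests were chosen with earlier results of these data known.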

Additional observations from a re-analysis of the deposited data

Results flagged for a closer look

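Of the 95 genes, 3 moved in opposite directions with sorbitol in the 2 strains, every sorbitol library lying above every untreated library in one strain and below in the other. Such opposite moves were found for 0.974% of all 10988 genes, beside 3.16% of the 95. The THS30 libraries were used by the rule, and the difference between strains was not tested. AN2436 had 208, 208 and 232 RPKM untreated and 148, 186 and 185 with sorbitol in THS30, but 134, 156 and 174 untreated and 291, 238 and 241 with sorbitol in Δ*gfdB*, a log2 ratio of 0.73. AN7159 had 35.6, 38.4 and 37.5 against 39.4, 39.5 and 44.04 in THS30, and 38.3, 33.4 and 34.1 against 23.1, 27.9 and 23.8 in Δ*gfdB*, a ratio of −0.48. AN7867 had 6.65, 5.67 and 5.97 against 6.89, 7.81 and 7.13 in THS30, and 7.42, 11.04 and 9.96 against 6.24, 6.68 and 6.92 in Δ*gfdB*, a ratio of −0.46. After scaling for composition the Δ*gfdB* sorbitol change was 1.02 for AN2436 (edgeR adjusted p = 1.11e-05), −0.21 for AN7159 (edgeR adjusted p = 0.102) and −0.23 for AN7867 (edgeR adjusted p = 0.269).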

How the results depend on the processing

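Of 720 fitted combination changes of 40 named members under the alternatives, all kept their direction, 31 lost and 2 gained the call. Counts below are members called, with the share of all genes tested in brackets, first without composition scaling, then with limma on log2(RPKM + 1), then the range over leaving out single libraries. Rises more than 2-fold in the combination (49, 6.02%) were 28 (3.84%), 28 (2.03%) and 34 to 62. Sorbitol rises more than 2-fold (13, 16.1%) were 4 (11.5%), 3 (7.77%) and 9 to 23, and rises of any size (49, 32.7%) were 26 (23.2%), 29 (21.0%) and 37 to 55. NaCl rises more than 2-fold (1, 18.6%) were 0 (12.5%), 0 (9.07%) and 0 to 3, and rises of any size (13, 33.7%) were 1 (22.5%), 3 (20.5%) and 6 to 18. NaCl falls more than 2-fold (6, 16.7%) were 21 (28.7%), 14 (18.8%) and 5 to 8, and falls of any size (26, 36.2%) were 57 (53.3%), 50 (46.0%) and 21 to 43. Interactions more than 2-fold (34, 25.1%) were 57 (37.3%), 52 (28.1%) and 26 to 38. Genes above all 3 other conditions (56) were 37 to 70 leaving out single libraries. AN4026 and AN10299 turned from no call to a fall with NaCl, at −0.36 and −0.37 without scaling and −0.34 and −0.38 with limma. The limma setting adds 1 to RPKM and also has no TMM step and no count filter, and which of these moved its counts was not tested. The rule took 148 genes with a pseudocount of 0.1, 176 after TMM scaling, 41 at thresholds of 1.0 and 0.3, and 85 to 108 leaving out single libraries. Replicate numbers did not pair the samples (correlations of same-numbered deviations −0.229 to 0.147), and with them as a block 49 genes rose more than 2-fold. AN10818 and AN11096 rest on few reads, and the 3 libraries per group limit the small differences between sorbitol and the combination.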

Other observations

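Beside the deleted *gfdB*, AN6789, 3 places away, missed the rule by little, with a THS30 combination ratio of 0.895, and in Δ*gfdB* the combination raised it by 0.80 (edgeR adjusted p = 0.000155). Between it and AN6786, AN6787 and AN6788 had THS30 combination ratios of −0.71 and 0.05.

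AN5037 was higher in Δ*gfdB* under every treatment: 8.12, 8.25 and 6.68 RPKM untreated against 1.54, 1.60 and 2.15 in THS30, and 12.7, 24 and 12.5 in the combination against 6.83, 3.70 and 4.36. AN10506 had 13.3, 28.4 and 26.8 untreated in Δ*gfdB* against 10.1, 9.64 and 10.8. Both were named after their values were seen, and the strain differences were not tested.

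The transfer RNA gene among the 95 had 0.726, 0.754 and 0 RPKM untreated and 4.22, 2.64 and 0.616 in the combination in THS30, so the groups overlapped, and it was too low to be tested in Δ*gfdB*.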
